A study of Mus musculus with 2 samples.

Results

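H3K9me2 peaks that lay inside very long protein-coding genes were examined in embryonic mouse cortex. A peak was counted when its midpoint fell within the body of a protein-coding gene of at least 500 kb on chromosomes 1 to 19, with gene bodies taken from RefSeq's GRCm38.p6 annotation (mm10). There were 557 such peaks among the 6253 of the TBC1D3-transgenic library, and 70 among the 743 of the wild-type library. There were 215 such genes, with or without a peak, which ran from 502 to 2271 kb, with a median of 735 kb, and covered 7.47% of the autosomal sequence. Both libraries were made by chromatin immunoprecipitation and sequencing of cortex at embryonic day 15.5 in the C57BL/6 strain, with an antibody to H3K9me2. One carried TBC1D3, a hominoid gene, as a transgene, and the other was wild type. What drives the transgene and how many embryos were pooled are not given in the sources used here. There was 1 library per genotype, so no p-value was computed, a difference between genotypes has no replicate check, and genotype, library and call settings cannot be told apart. All intervals are exact 95% intervals that cover counting error only. The files hold peak positions and no expression, so the tissue label could not be checked against marker genes.

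H3K9me2 is a repressive histone mark. It is written largely by G9a (Ehmt2) with its partner GLP (Ehmt1), and it is known to spread over broad domains of silent chromatin, many of them at the nuclear periphery. Very long genes are made mostly of intron. Many of them encode adhesion molecules, receptors, channels and scaffolds of neurons, and several lie at common fragile sites, where chromosomes tend to break under replication stress.

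After filtering, the transgenic library counted 20697113 tags in the ChIP and 20968853 in its input, and the wild-type library 26735120 in the ChIP and 25431051 in its input, per the file headers. The peaks inside long genes were small. In the transgenic library they had a median of 7 fragments (range 5 to 12), a median width of 113 bp and a median fold over local background of 3.71. In the wild-type library the medians were 6 fragments (range 5 to 9), 57.5 bp and a fold of 3.87. The widths sit near the length to which fragments were extended, 111 bp for the transgenic and 57 bp for the wild-type library. Fold and q are the authors' own values per peak. The lowest listed q among these peaks was 0.0673 in the transgenic and 0.274 in the wild-type library, and 97.1% of the wild-type ones carried a q of 1. Each peak is therefore weak by itself, and the results rest on counts of peaks over long stretches.

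The promoter windows of Opcml, Fhit and Gabrg3, which were among the 4 genes with most transgenic peaks, are shown because they lie at or near the 5′ ends of these genes. Peak positions within a gene were measured from the 5′ end of its RefSeq body, which lies 583 bp from the transcript start of the window in Opcml, 26 bp in Fhit and 0 bp in Gabrg3. They are RefSeq sequences of GRCm38.p6, written 5′ to 3′ on the gene's strand, and the capitals mark CG dinucleotides, which read the same on both strands. The Opcml window is chr9:27791049-27791348 on the plus strand, the Fhit window chr14:11161986-11162285 on the minus strand and the Gabrg3 window chr7:57387166-57387465 on the minus strand.
Opcml: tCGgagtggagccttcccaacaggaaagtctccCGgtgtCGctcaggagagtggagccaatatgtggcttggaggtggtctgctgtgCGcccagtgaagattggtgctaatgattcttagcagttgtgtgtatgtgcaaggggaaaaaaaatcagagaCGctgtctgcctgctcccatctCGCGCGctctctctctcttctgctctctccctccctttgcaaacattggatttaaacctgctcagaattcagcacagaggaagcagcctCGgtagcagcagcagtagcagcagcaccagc
Fhit: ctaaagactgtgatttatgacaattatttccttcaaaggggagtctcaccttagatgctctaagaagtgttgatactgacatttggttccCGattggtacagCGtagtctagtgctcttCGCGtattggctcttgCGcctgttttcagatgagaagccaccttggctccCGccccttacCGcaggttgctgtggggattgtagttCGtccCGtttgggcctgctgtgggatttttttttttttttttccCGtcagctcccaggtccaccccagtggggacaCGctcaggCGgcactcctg
Gabrg3: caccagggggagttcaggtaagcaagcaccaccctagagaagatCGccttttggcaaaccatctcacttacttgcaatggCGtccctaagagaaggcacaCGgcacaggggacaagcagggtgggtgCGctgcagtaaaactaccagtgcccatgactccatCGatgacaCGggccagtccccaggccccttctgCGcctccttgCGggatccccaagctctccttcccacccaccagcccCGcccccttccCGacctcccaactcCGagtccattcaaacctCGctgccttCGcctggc
The windows of 300 bases held 9 CG dinucleotides in Opcml, 12 in Fhit and 13 in Gabrg3. Over the 271 windows of 169 long genes the median was 12, against 7 over all 32851 windows in the table. Those 32851 windows came from 27025 genes, more than the 20556 autosomal coding genes used here, so they are not limited to these genes. Long genes were not compared with other coding genes in CG content. At least 1 CG was present in 98.9% of the long-gene windows and in 94.6% of all windows, and at least 10 were present in 57.2% and 43.5%. The transgenic peak nearest to the window lay 25.7 kb away in Opcml, 13.8 kb away in Fhit and 38.9 kb away in Gabrg3. The nearest wild-type peak lay 534 kb, 10 kb and 399 kb away in the same genes. Of the 551 transgenic and 68 wild-type member peaks on chromosomes with tabulated promoters, 0 and 0 overlapped any of the 520 promoter windows inside long genes. Those windows cover 156 kb, where the mean density of long genes gives 0.484 transgenic and 0.0608 wild-type peaks, so an absence was not detectable at this depth.

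Long genes carried more H3K9me2 peaks per length than shorter coding genes in both libraries. In the transgenic library long genes held 3.10 peaks per Mb (2.85 to 3.37), against 1.88 (1.74 to 2.01) in the 2096 coding genes of 100 to 500 kb and 1.08 (0.976 to 1.18) in the 18245 coding genes under 100 kb. Wild-type density in long genes was 0.39 peaks per Mb (0.304 to 0.492), against 0.256 (0.209 to 0.31) and 0.0926 (0.0652 to 0.128). The density in long genes was 1.65 times (1.48 to 1.85) that of mid-length genes in the transgenic library and 1.53 times (1.11 to 2.09) in the wild-type library. The wild-type interval took in 1 when chromosome 14 was left out, at 1.32 (0.931 to 1.85), at a fold of at least 4, at 1.62 (0.94 to 2.76), and with −log10 p from 5 up, at 1.87 (0.878 to 3.93). Over genes under 100 kb it was 2.88 times (2.54 to 3.28) in the transgenic and 4.21 times (2.79 to 6.45) in the wild-type library. Each base and each peak was given to the longest coding gene that covers it. Sequence outside coding genes had about the same density as long genes: the ratio of long genes to it was 1.01 (0.926 to 1.11) in the transgenic and 1.04 (0.799 to 1.34) in the wild-type library.

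Against sequence outside coding genes within 500 kb of the same long genes, density inside the genes was lower in the transgenic library, at 3.10 peaks per Mb inside and 3.69 (3.39 to 4.02) around them, a ratio of 0.84 (0.744 to 0.947). With peaks of fold at least 4 that ratio was 0.934 (0.753 to 1.16), and with −log10 p from 5 up it was 0.927 (0.748 to 1.15). Wild-type density was 0.39 inside and 0.498 (0.39 to 0.627) around them, and the interval of the ratio of 0.783 ran from 0.555 to 1.1.

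In the transgenic library density was level below 100 kb and higher in longer genes from there to about 500 kb, and the bins above that overlapped. It was 1.05 peaks per Mb in genes under 25 kb, 0.958 from 25 to 50 kb and 1.18 from 50 to 100 kb, with intervals that overlap. Transgenic density was then 1.36 (1.19 to 1.54) from 100 to 200 kb, 2.01 from 200 to 300 kb, 2.25 from 300 to 400 kb and 2.92 (2.49 to 3.42) from 400 to 500 kb. Above the threshold it was 3.16 (2.74 to 3.62) from 500 to 750 kb, 2.83 (2.34 to 3.39) from 750 to 1000 kb, 3.34 (2.84 to 3.9) from 1000 to 1500 kb and 2.96 (2.33 to 3.71) from 1500 kb up. The 4 intervals above the threshold overlap, and the bin just below it overlaps them too, so 500 kb is a cut in a continuous range. Across the 215 long genes, whose values come from 1 library, length and transgenic peaks per Mb gave r = -0.00137 (Pearson) and rho = 0.00516 (Spearman). Wild-type bins were less even: 0.285 from 200 to 300 kb, 0.163 from 300 to 400 kb, 0.5 (0.329 to 0.727) from 400 to 500 kb, and 0.308, 0.483, 0.438 and 0.355 in the 4 bins above the threshold.

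**Figure D1:**
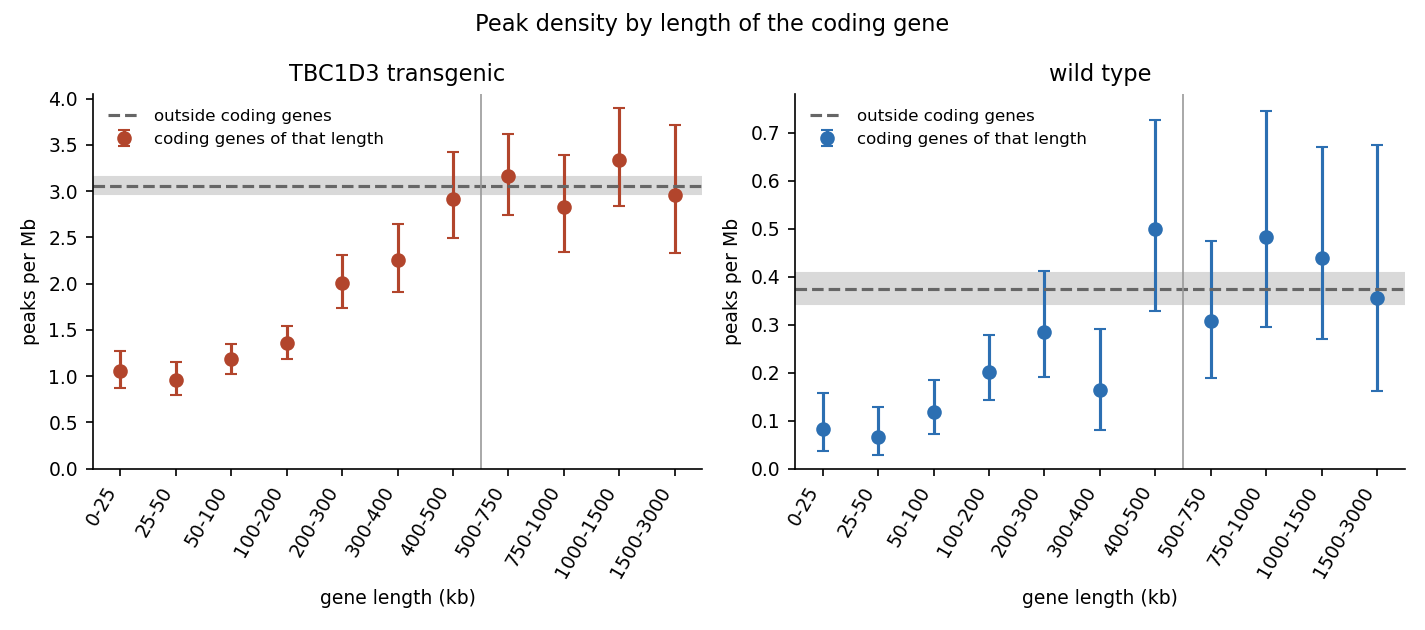
Peaks per Mb (y axis, exact 95% intervals) against gene length in kb (x axis) for transgenic (left) and wild-type (right) libraries; the dashed line and band give sequence outside coding genes and the vertical line the 500 kb threshold. Transgenic density climbs to 2.92 at 400 to 500 kb and stays between 2.83 and 3.34 above the threshold.

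The larger number of transgenic peaks held in every length class. The list counts had a transgenic to wild-type ratio of 7.96 (6.2 to 10.4) in long genes, 7.34 (5.97 to 9.11) in mid-length genes, 11.6 (8.3 to 16.7) in genes under 100 kb and 8.17 (7.47 to 8.96) outside coding genes. The ratio in long genes divided by that in mid-length genes was 1.08 (0.776 to 1.52), by that in short genes 0.685 (0.438 to 1.06) and by that outside coding genes 0.973 (0.745 to 1.29). All 3 intervals include 1, and a difference as large as their ends was not detectable at this depth.

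Most long genes held a peak in the transgenic library and a smaller share did in the wild type. At least 1 peak lay in 187 of the 215 long genes (87%, 81.7 to 91.2) in the transgenic library, where the share over all 20556 autosomal coding genes was 5.4%. Wild-type peaks lay in 55 long genes (25.6%, 19.9 to 32), where the share over all coding genes was 0.91%. A longer gene has more sequence in which a peak can lie, and no correction for length was made in these shares. Mid-length genes had a peak in 24.8% (transgenic) and 4.53% (wild type), and genes under 100 kb in 2.2% and 0.203%. Long genes averaged 2.6 ± 2.38 peaks in the transgenic library and 0.326 ± 0.631 in the wild-type library (SD over 215 genes, 1 library each). Peaks in both libraries were found in 54 genes, which are 28.9% of the transgenic and 98.2% of the wild-type genes with a peak. Another 133 genes had transgenic peaks only, 1 had a wild-type peak only (Negr1, an adhesion molecule of the IgLON family, named here after its values were seen), and 27 had none.

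Long genes with more peaks in one library also had more in the other. Genes with a wild-type peak held 4.46 transgenic peaks per Mb (3.9 to 5.06, 55 genes), against 2.52 (2.25 to 2.81, 160 genes) in those with none, a ratio of 1.77 (1.49 to 2.1). In the other direction, genes with 4 or more transgenic peaks held 0.677 wild-type peaks per Mb (0.484 to 0.922, 56 genes), those with 2 to 3 held 0.327 (0.2 to 0.506, 73 genes) and those with 0 to 1 held 0.162 (0.0777 to 0.298, 86 genes). Grouping by count also sorts genes by length, and the part of length in these ratios was not tested. Across the 215 genes the densities of the libraries gave r = 0.415 (Pearson) and rho = 0.331 (Spearman); the points share each gene's length and its position in the genome.

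**Figure D2:**
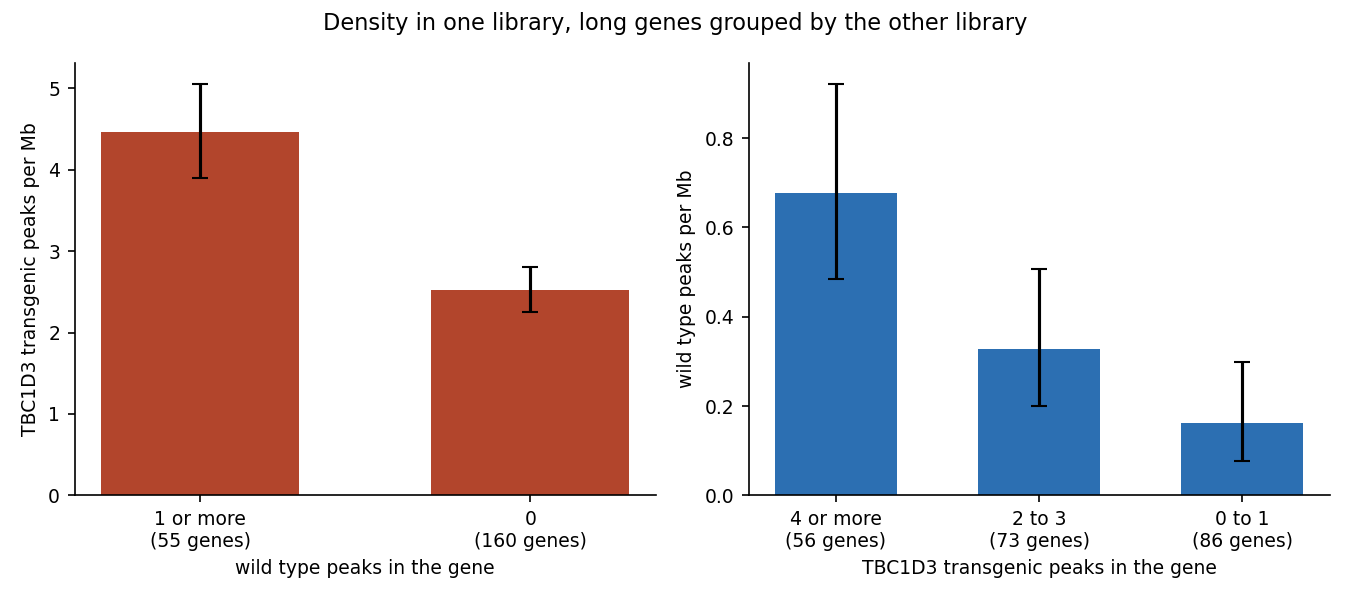
Peaks per Mb (y axis, exact 95% intervals) of one library in long genes grouped by their peak count in the other (x axis, number of genes in brackets). Transgenic density is 4.46 where wild-type peaks lie and 2.52 where none does, and wild-type density falls to 0.162 in genes with 0 to 1 transgenic peaks, against 0.677 in genes with 4 or more.

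In shared long genes the peaks of the libraries did not overlap, though some lay close. Of the 70 wild-type members, 0 overlapped a transgenic member and 11 lay within 10 kb of one. At median widths of 113 bp (transgenic) and 57.5 bp (wild type), density alone leaves little room for overlap. The numbers that density gives by overlap and within 10 kb were not computed, so closeness beyond it was not tested. Among the 69 that lay in a gene with a transgenic peak, the median distance to the nearest transgenic peak was 56.2 kb. Close pairs included those in Adamtsl1 at 0.465 kb (wild-type peak at chr4:86090490-86090568) and Clstn2 at 0.916 kb (chr9:97559273-97559329). Neighbouring transgenic peaks of a gene lay a median of 111 kb apart over 373 gaps, and 24 gaps were under 10 kb. Wild-type neighbours lay a median of 206 kb apart over 15 gaps.

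The long genes with many transgenic peaks included genes for adhesion molecules, a receptor subunit and channel partners. They were chosen for their counts, so the height of those counts is a description. Opcml, an IgLON adhesion molecule of neurons (chr9:27790716-28925410), held 14 transgenic peaks (7.65 to 23.5) and 2 wild-type peaks, where the mean long-gene density gives 3.52 and 0.442. Fhit, a dinucleotide hydrolase at a fragile site (chr14:9550092-11162061), held 12 and 3. Gabrg3, a GABA-A receptor subunit (chr7:56716463-57387215), held 10 and 1, and its 14.9 transgenic peaks per Mb (7.15 to 27.4) were the highest of any long gene with at least 3. Cacna2d3, an auxiliary subunit of voltage-gated calcium channels (chr14:28904943-29722775), held 9 and 3, and Cdh13, a cadherin anchored by a lipid (chr8:118140017-119324929), also held 9 and 3. Gpc5, a glypican, and Csmd1, a membrane protein with complement control domains, each held 8 transgenic and 0 wild-type peaks.

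Among the genes with 7 transgenic peaks, Erc2, a scaffold of the presynaptic active zone, held 3 wild-type peaks. Nell1, a secreted glycoprotein, Asic2, an acid-sensing channel subunit, and Macrod2, an ADP-ribose hydrolase, held 2 each. Rbfox1, a splicing regulator, and Nrxn3, a presynaptic neurexin, held 1 each, and Trpm3, a cation channel, held 0, as did Lsamp, another IgLON. The transgenic intervals of 10 genes lay above the class density, among them Opcml, Fhit, Gabrg3, Cacna2d3, Cdh13, Erc2, Trpm3, Nell1 and Rarb, the retinoic acid receptor beta, and that of 1 lay below. The wild-type intervals of 3 genes lay above (Cacna2d3, Cdh13 and Erc2, with 3 peaks each) and 0 below. No wild-type interval could lie below. Its upper limit at 0 peaks is 3.69, and the class density gives only 0.885 peaks in the longest gene, Ptprd. Cacna2d3, Cdh13 and Erc2 were also above in the transgenic library. The 215 intervals of each library were not adjusted for their number, and how many would lie outside by counting error was not computed.

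**Figure D3:**
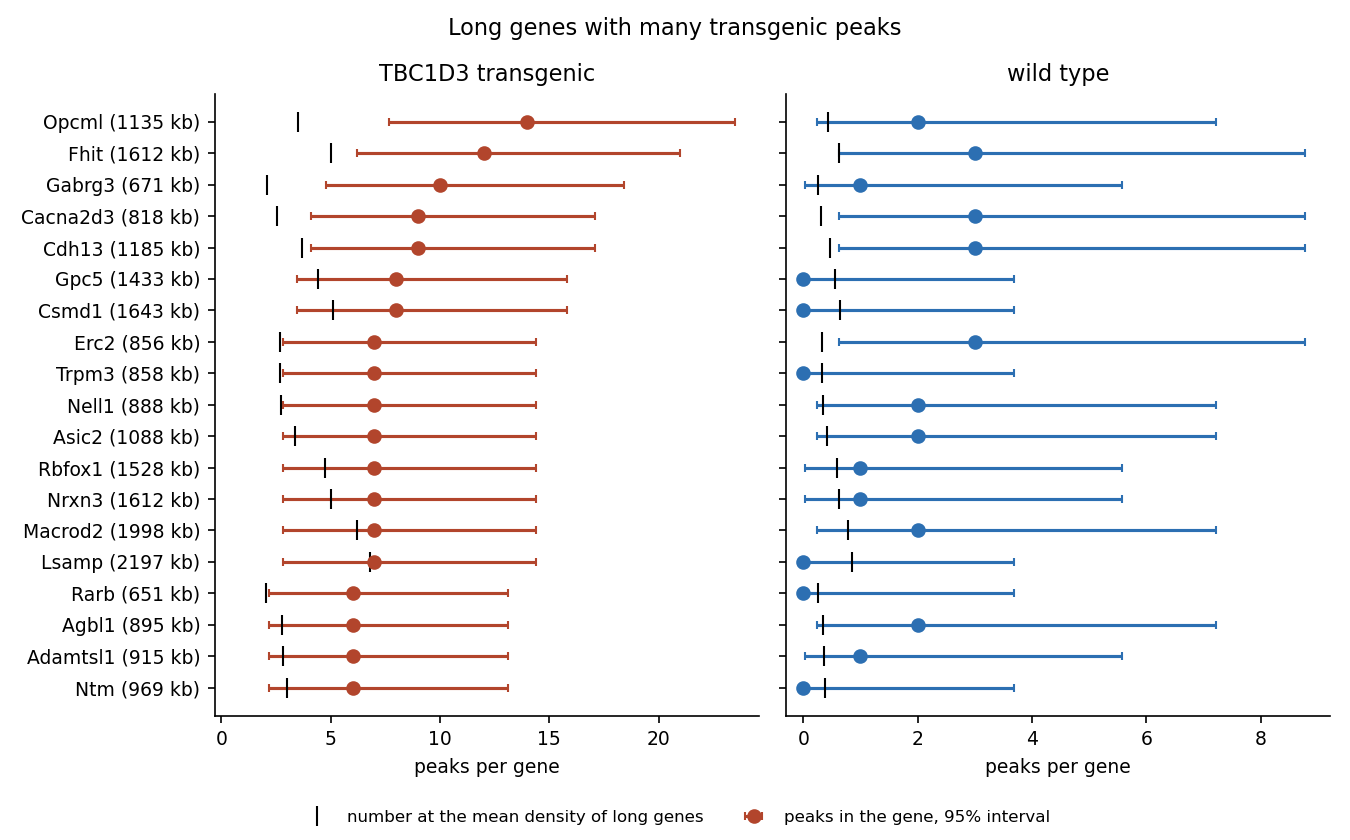
Peaks per gene (x axis, exact 95% intervals) in 19 of the long genes with many transgenic peaks, for transgenic (left) and wild-type (right) libraries; black ticks give the number at the mean density of long genes. Opcml has 14 transgenic and 2 wild-type peaks, against 3.52 and 0.442 at that density.

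Transgenic peaks spanned most of the body in Opcml, Fhit and Gabrg3, while in Cacna2d3 they began at 228 kb. In Opcml the 14 transgenic peaks lay from 26.2 to 1107 kb from the 5′ end, with 4 of them in the first 96.9 kb, and the 2 wild-type peaks lay at 534 and 714 kb. In Fhit the 12 transgenic peaks lay from 13.7 to 1395 kb and the 3 wild-type peaks at 9.94, 181 and 1603 kb. In Gabrg3 the 10 transgenic peaks lay from 38.8 to 641 kb and the wild-type peak at 399 kb, 4.11 kb from a transgenic one. In Cacna2d3 the 9 transgenic peaks lay from 228 to 730 kb. Its wild-type peaks at 373 and 377 kb lay between transgenic peaks at 228 and 427 kb, and another wild-type peak lay at 167 kb.

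**Figure D4:**
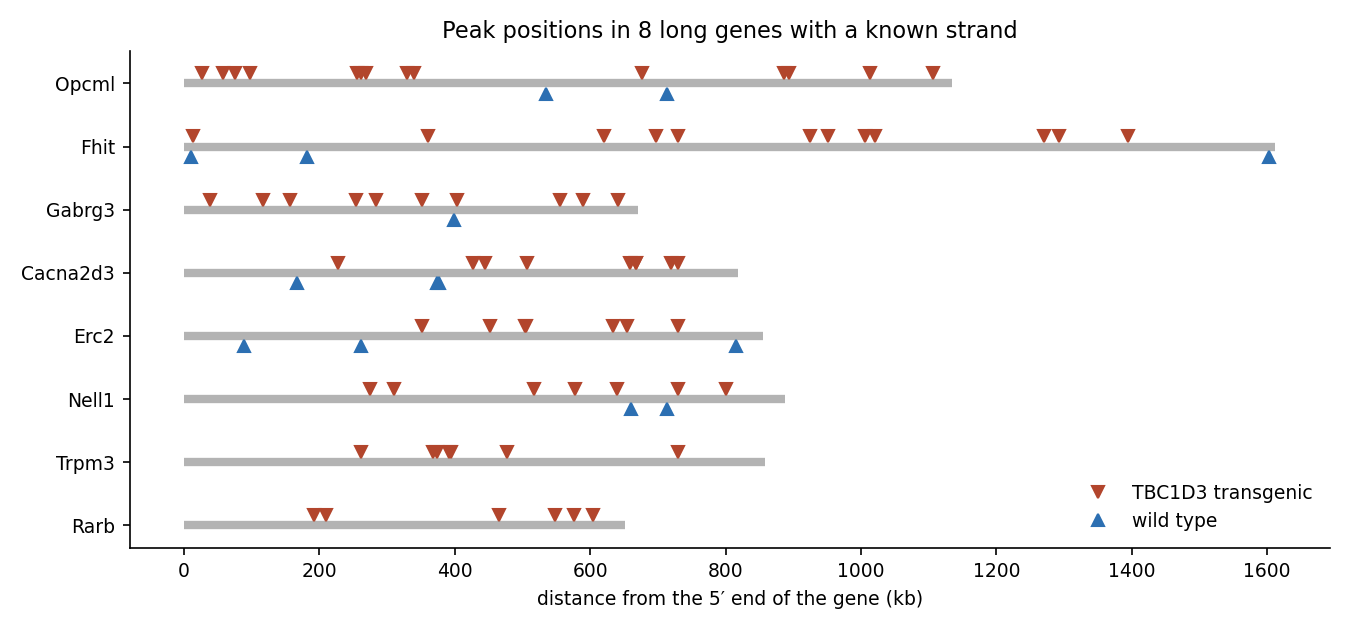
Positions of transgenic peaks (down triangles, above the bar) and wild-type peaks (up triangles, below it) in 8 named long genes whose strand was known, by distance from the gene's 5′ end in kb (x axis); grey bars give gene bodies. In Opcml 4 transgenic peaks lie within 96.9 kb of the 5′ end and the last lies at 1107 kb.

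Peaks of high listed fold were also found in other genes. In the transgenic library these were in Lingo2, a leucine-rich repeat protein of neurons (chr4:36544087-36544244), and Sgcd, delta-sarcoglycan (chr11:47733045-47733157), with a fold of 5.97 each, followed by Adamtsl1, a secreted matrix protein, at 5.9. Among wild-type peaks, Agbl1, a deglutamylase, held one at 5.5, followed by Foxp2, a forkhead transcription factor, at 5.11, Immp2l, a mitochondrial peptidase subunit, at 5.08 and Cntnap5b, a contactin-associated protein, at 5.

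Counts differed among genes of like length. For each long gene named in this paragraph, the transgenic interval includes the number that the mean density gives, as with Cntnap2 (0.619 to 8.77). The longest gene, Ptprd, a receptor tyrosine phosphatase of 2271 kb, held 5 transgenic peaks and 1 wild-type peak, and Cntnap2, a contactin-associated protein of 2241 kb, held 3 and 0, where the mean density gives 6.95 transgenic peaks. Lrp1b, a lipoprotein receptor relative of 2058 kb, held 5 and 0. Robo2, a Slit receptor, and Pcdh15, a protocadherin of hair cells, had 1.93 transgenic peaks per Mb each. Long genes with no peak in either library included Erbb4, a neuregulin receptor (1077 kb, 3.34 transgenic peaks at the mean density), Sox5, a transcription factor (954 kb, 2.96), Wwox, an oxidoreductase at a fragile site (913 kb, 2.83), and Marchf1, a membrane ubiquitin ligase (855 kb, 2.65). Just inside the threshold, Samd12, Dock1 and Edil3 held 4, 2 and 2 transgenic and 0, 1 and 0 wild-type peaks. Just outside it, Dnm3, Lrrc7 and Cacna1e held 0, 1 and 5 transgenic and 0 wild-type peaks each.

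By function, 4 of the 8 groups of long genes were near the class as a whole. Summed gene by gene, all 215 had 3.08 transgenic peaks per Mb (2.83 to 3.34) and a median of 2.43 per gene, and 0.385 wild-type peaks per Mb. Synaptic and neuronal adhesion genes (28 of 31 with a transgenic peak, 10 with a wild-type peak) had 3.05 and 0.44 per Mb, with medians over genes of 2.22 and 0. Scaffold, phosphatase and kinase genes (19 of 21, and 5) had 3.02 and 0.353. RNA-binding and transcription regulators (12 of 14, and 5) had 3.02 and 0.444, with Rbfox1 at 7 and 1 peaks, Rarb at 6 and 0 and Rora, an orphan nuclear receptor, at 5 and 1. Fragile site genes (21 of 24, and 6) had 3 and 0.285, with Fhit at 12 and 3 peaks and Wwox at 0 and 0.

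The other 4 groups lay further out, on few genes, and the transgenic intervals of 3 of them include the value of all long genes. Glutamate and GABA receptor genes (5 of 7, and 2) had 4.23 transgenic peaks per Mb (2.74 to 6.24) and 0.338 wild-type ones, with Gabrg3 at 10 and 1 peaks, Grm8 and Grm7, metabotropic glutamate receptors, at 5 and 0 and at 4 and 1, and Grik2, a kainate receptor, at 0 and 0. Ion channels and partners (13 of 13, and 4) had 3.97 (2.84 to 5.41) and 0.596, with Ryr3, a calcium release channel, at 4 and 0. Matrix proteoglycan and muscle complex genes (10 of 10, and 3) had 4.13 (2.95 to 5.62) and 0.309, with Sgcd at 5 and 1. Axon guidance genes (10 of 12, and 5) had the lowest transgenic value, 1.76 (1.06 to 2.75), an interval that lies below 3.08, with 3 transgenic peaks each in Robo1, Nrg1 and Dcc, and 0.463 in the wild type. These groups were listed with earlier results of the data known, and their counts are a description.

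Within long genes density was lower toward the ends in the transgenic library. It was 3.18 peaks per Mb over 50 kb from both ends, against 2.33 within 50 kb of one, a ratio of 1.37 (1.02 to 1.87). Wild-type densities were 0.393 and 0.326, a ratio of 1.21 (0.553 to 3.12) that rests on 7 peaks near ends. Mid-length genes also had lower density near their ends, in the transgenic library 2.13 against 1.6, a ratio of 1.33 (1.15 to 1.54), and in the wild-type library 0.31 against 0.196, a ratio of 1.59 (1.05 to 2.41). Comparing interiors only, long genes over mid-length genes had a ratio of 1.49 (1.31 to 1.7) in the transgenic library and 1.27 (0.878 to 1.83) in the wild-type library. These interiors are not matched for distance: 95.9 Mb of long genes lay over 200 kb from an end, against 5.23 Mb of mid-length genes. Transgenic densities in long and mid-length genes were 2.79 and 1.88 at 50 to 100 kb and 3.37 and 2.51 at 100 to 200 kb. Over 200 kb they were 3.18 and 3.06 (1.75 to 4.96 in mid-length genes). Along the 5′ to 3′ axis, the 442 transgenic peaks in genes of known strand fell 17.9, 20.4, 24.4, 18.1 and 19.2% into 5 equal parts of the gene body. The middle part had the highest share (20.5 to 28.7) and the first the lowest (14.4 to 21.8), and all 5 intervals overlap. The 60 wild-type peaks fell between 16.7% and 25% into each, with intervals that also overlap throughout.

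**Figure D5:**
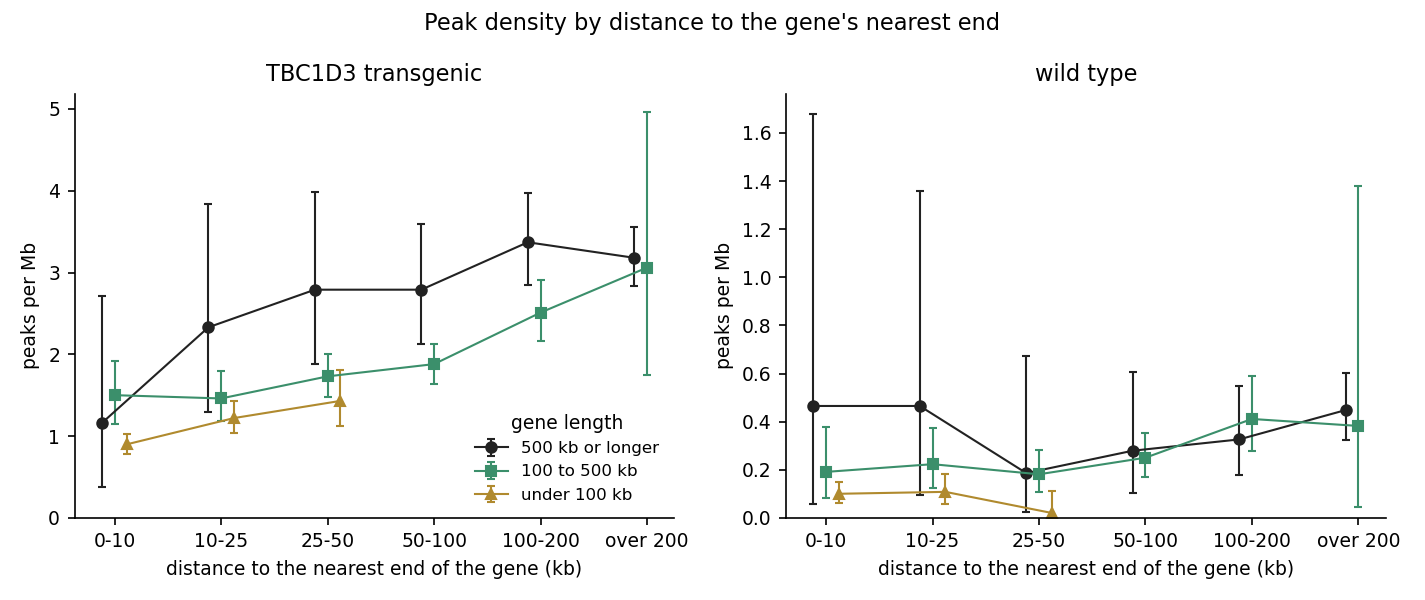
Peaks per Mb (y axis, exact 95% intervals) by distance in kb to the nearest end of the gene (x axis), for coding genes of 500 kb or longer, 100 to 500 kb and under 100 kb, in transgenic (left) and wild-type (right) libraries. Transgenic density in long genes is 1.16 within 10 kb of an end and 3.37 at 100 to 200 kb, and mid-length genes reach 3.06 beyond 200 kb.

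Within 1 Mb windows with 1 to 5 coding genes, long genes had 3.23 transgenic peaks per Mb, mid-length genes 2.25, short genes 1.45 and sequence outside coding genes 3.64. The ratio of long to mid-length genes there was 1.43 (1.25 to 1.65) in the transgenic and 1.44 (0.962 to 2.15) in the wild-type library, and the ratio to short genes 2.23 (1.75 to 2.89) and 4.35 (1.76 to 13.9). The ratio to sequence outside coding genes was 0.887 (0.8 to 0.982) in the transgenic library and 0.985 (0.727 to 1.32) in the wild-type library. In windows with 6 to 15 coding genes the ratio of long to mid-length genes was 1.79 (1.34 to 2.34) in the transgenic library and 0.917 (0.285 to 2.3) in the wild-type library, and the ratio to sequence outside coding genes 1.04 (0.798 to 1.34) and 0.546 (0.175 to 1.3). Where no coding gene midpoint lay in the window, mid-length genes covered 1.4 Mb and held only 4 transgenic peaks and 1 wild-type peak. The ratios of long genes to them, 0.746 (0.265 to 2.9) and 0.633 (0.0814 to 28.5), give no direction. In windows with 16 or more coding genes the transgenic ratio was 2 (0.776 to 4.36), on 7 peaks in long genes. By chromosome, long genes had more transgenic peaks per Mb than mid-length genes on 17 of 19 chromosomes and more than short genes on 19. For the wild type this held on 12 and 16 of 19. Transgenic density in long genes ran from 1.32 on chromosome 3 to 5.38 on chromosome 9. Chromosome 14 held 67 transgenic and 14 wild-type peaks in 15 long genes, Fhit, Cacna2d3, Gpc5, Erc2 and Rarb among them.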

How the data were processed

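Peaks had been called by the authors, per the file headers, in each library against its own input with MACS 2.1.0.20150420, at a p cutoff of 0.001, with no shift model, and with a fragment extension of 111 bp (transgenic) and 57 bp (wild type). The submitters' processing notes also name BWA and the build mm10. The pileup signal the authors deposited counts extended fragments at a peak's summit, with the larger of ChIP and input scaled down, and dividing by the scale (1 and 0.951) gave whole fragments within 0.00491. The deposited fold is the ratio of pileup plus 1 to local background plus 1. Both −log10 p and −log10 q were deposited as the caller gave them; the headers say q was not calculated, yet values are listed and were used as listed. No columns of other samples were present.

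Genes came from the RefSeq table of GRCm38.p6, without exons, so introns, exons and untranslated regions were not separated. The 105 coding genes with a start under 3 Mb were left out. Strand came from the promoter table for 169 of the 215 long genes. Each base went to the longest coding gene over it. In sums over genes, peaks in overlapping long genes count once per gene. Densities have exact Poisson intervals, ratios exact conditional intervals and shares exact Clopper-Pearson intervals, with Python 3.11.15, numpy 2.4.6, pandas 2.3.3 and scipy 1.17.1; the density code was tested on simulated data. No genome sequence was used, so repeats, mappability and base composition of the peaks were not analysed here.

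The members and gene lists were chosen with earlier results of these data known. Named genes were the 15 with most transgenic and the 10 with most wild-type peaks, the 5 longest, the 5 longest with no peak, the 5 highest and 5 lowest per Mb with at least 3 transgenic peaks, up to 3 per list, those of the 5 highest folds per library, and those next to 500 kb. Genes that the rule selected and the text leaves out are not reported here. Genes outside this rule were named after their values were seen. Alternatives were other length thresholds, the summit for the midpoint, stricter fold and p, merged peaks, no predicted genes, a shortened transgenic list, the fullest gene left out, gene-poor windows and wider surroundings. Leaving out chromosome 14 and gene interiors were chosen after seeing the data.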

Additional observations from a re-analysis of the deposited data

How the results depend on the processing

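Of 140 values under other settings, 112 stayed close to the reported one, 28 moved and 0 reversed. Close meant inside the interval of the reported value. For counts it meant within a fixed factor, so that 263 genes with a transgenic peak against 187 was close. Only ratios whose reported interval excluded 1 could be labelled reversed. Counts, densities and the wild-type ratio to surroundings could not. The ratio of long to mid-length genes ran from 1.43 to 1.98 in the transgenic library, above 1 by its interval under 12 of 12 settings. In the wild-type library it ran from 1.27 to 1.91, above 1 under 7 of 12. Among these, the shortened transgenic list, the summit for the midpoint and merged peaks repeated the reported 1.53 (1.11 to 2.09). The same settings also repeated the reported wild-type ratios to short genes and to surroundings. The ratio to short genes ran from 2.23 to 2.99 (11 of 11) and from 3.69 to 4.71 (11 of 11). The ratio to surroundings ran from 0.782 to 0.934 in the transgenic library, below 1 by its interval under 8 of 11 settings, and from 0.695 to 0.863 in the wild-type library, below 1 under 0 of 11.

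Stricter peak thresholds keep fewer peaks by construction. At a −log10 p of at least 5 there were 190 transgenic and 15 wild-type peaks in long genes, at 1.06 and 0.0835 per Mb, in 112 and 14 genes, 9 of them shared, and the transgenic ratio to mid-length genes was 1.97. At a fold of at least 4 these were 188 and 26 peaks, 1.05 and 0.145 per Mb, 109 and 24 genes, 13 shared, and 1.98. The shared counts are to be read beside the 112 and 109 of all 215 long genes with a transgenic peak at these thresholds. Sharing beyond those shares was not tested. The cause of the higher ratios was not tested. With genes of at least 750 kb, fewer genes by construction, 352 transgenic peaks lay in 96 genes, 36 genes had wild-type peaks and 35 were shared. These counts are to be read beside the 50 genes of 750 to 1000 kb, 41 of 1000 to 1500 kb and 14 from 1500 kb up. With as many transgenic as wild-type peaks, taken by lowest p, 61 peaks at 0.34 per Mb lay in 46 of the 215 long genes. Of the 55 genes with wild-type peaks, 17 were shared. Under these 2 settings too, sharing beyond the share of genes with a transgenic peak was not tested. In windows with 1 to 5 coding genes the transgenic ratios were 1.43 to mid-length and 2.23 to short genes; the cause was not tested. Counting peaks in place of genes as shared gave 0 by overlap and 11 within 10 kb, neither set against the number that density gives. The genes left out as fullest were Opcml and Cacna2d3. Chosen after seeing the data were the alternatives without chromosome 14 and with gene interiors only. No paired analysis was possible because each genotype had 1 library.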

Other observations

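Of the peaks in long genes, 5.92% of the transgenic and 5.71% of the wild-type ones also lay inside a noncoding gene or pseudogene within the long gene, and 0.359% and 0% lay inside another coding gene. How much of the long-gene sequence such genes cover was not computed, so these shares have no background beside them. The share of peaks with 8 or more fragments was 24.1% (20.6 to 27.8) in long genes of the transgenic library, against 22.2% in mid-length genes, 27.7% in short genes and 21.2% outside coding genes. In the wild-type library it was 12.9% (6.05 to 23) in long genes, against 12.6%, 8.11% and 14.5%. In 1 Mb windows with no coding gene midpoint, long genes held 2.13 transgenic peaks per Mb (1.47 to 2.99), against 2.82 (2.62 to 3.04) outside coding genes, and 0.452 wild-type peaks per Mb (0.182 to 0.93), against 0.258 (0.199 to 0.329).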
